A study of Bos taurus with 18 samples.

Results

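The urea transporter gene SLC14A1 and 8 aquaporin genes, AQP1, AQP3, AQP4, AQP5, AQP7, AQP8, AQP9 and AQP11, were followed in rumen papillae, the finger-like folds of the rumen lining. They were taken by gene symbol, and all 9 were found among the 27270 genes of the deposited count table. The tissue came from 9 rumen-cannulated Holstein cows that were not lactating, 5 of them controls and 4 supplemented with an agent the labels name only as PHY. Biopsies were taken from every cow while it ate 100% forage, and later on high grain feeding (65% concentrate), so the 18 RNA-seq libraries form the groups forage control (n = 5), forage PHY (n = 4), grain control (n = 5) and grain PHY (n = 4). The labels give neither the meaning of PHY, nor the age of the cows, nor whether PHY was already fed at the forage biopsy. They do not say which library came from which cow, so libraries of the same cow were treated as independent and no paired test was made. All cows were cannulated and dry, and diet was not crossed with time: grain always came after forage.

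Ruminants return urea from the blood to the rumen through its wall, where microbes split it into ammonia and use the nitrogen for growth. SLC14A1 encodes UT-B, the facilitative urea channel of this epithelium. Among the aquaporins, AQP3, AQP7 and AQP9 are aquaglyceroporins, which pass glycerol and urea besides water. AQP1, AQP4 and AQP5 pass mainly water. AQP8 passes water and ammonia, and AQP11 is an intracellular member of the family with an unusual pore motif.

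Total reads per library ran from 15808999 to 34471682 on forage and from 3953060 to 23949058 on grain, a 0.482-fold difference of geometric means (exact permutation test over libraries, two-sided, p = 0.00317). The 3 shallowest libraries, grain PHY replicate 1, grain control replicate 1 and grain control replicate 4, were all on grain. Reads of 144 olfactory receptor genes, which few tissues express, numbered 424 to 1365 in every library whatever its depth, so their share of all reads was 2.90-fold higher on grain (exact permutation test, two-sided, p = 0.0021). The epithelial keratin KRT5 had group medians of 2778 to 4145 CPM, which goes with an epithelial tissue but does not single out papillae. No cell type marker in the count table was at 0 in all libraries, which does not test the tissue label. In bulk tissue, fewer cells of a type and less RNA per cell cannot be told apart.

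CPM, the level used throughout, is a gene's reads scaled to a fixed library size, with edgeR's TMM factors to correct for library composition, and libraries are listed from replicate 1 to n. They are not corrected for transcript length, so levels of different genes are not ranked against each other. A gene was called when its Benjamini-Hochberg adjusted p over 22202 tested genes was under 0.05. Of the 9 members, 8 passed the filter on low counts, and AQP11 did not. AQP8 passed it only through grain libraries, where it was high.

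On grain, SLC14A1 and AQP5 were lower and AQP8 and AQP9 higher when both treatment arms were averaged, while AQP1, AQP3, AQP4 and AQP7 did not pass the test. These 4 calls among 8 tested members stand beside 31.9% of all tested genes called in this comparison, 18.1% higher and 13.8% lower. AQP8, tested only because of its grain libraries, is included in this and later counts of called members wherever it was called. The members' median log2 fold change was 0.29, and that of all tested genes was 0.20. All 4 calls were lost when the 3 shallowest libraries were left out, when grain PHY replicate 1 or grain control replicate 1 alone was left out, and when the olfactory receptor share was added to the model. This loss was not particular to the members. The other gene lists, of related genes and of cell type markers, also had 0 called genes without the 3 shallowest libraries. The same held for those lists without grain PHY replicate 1 and with the olfactory receptor share in the model.

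**Figure D1:**
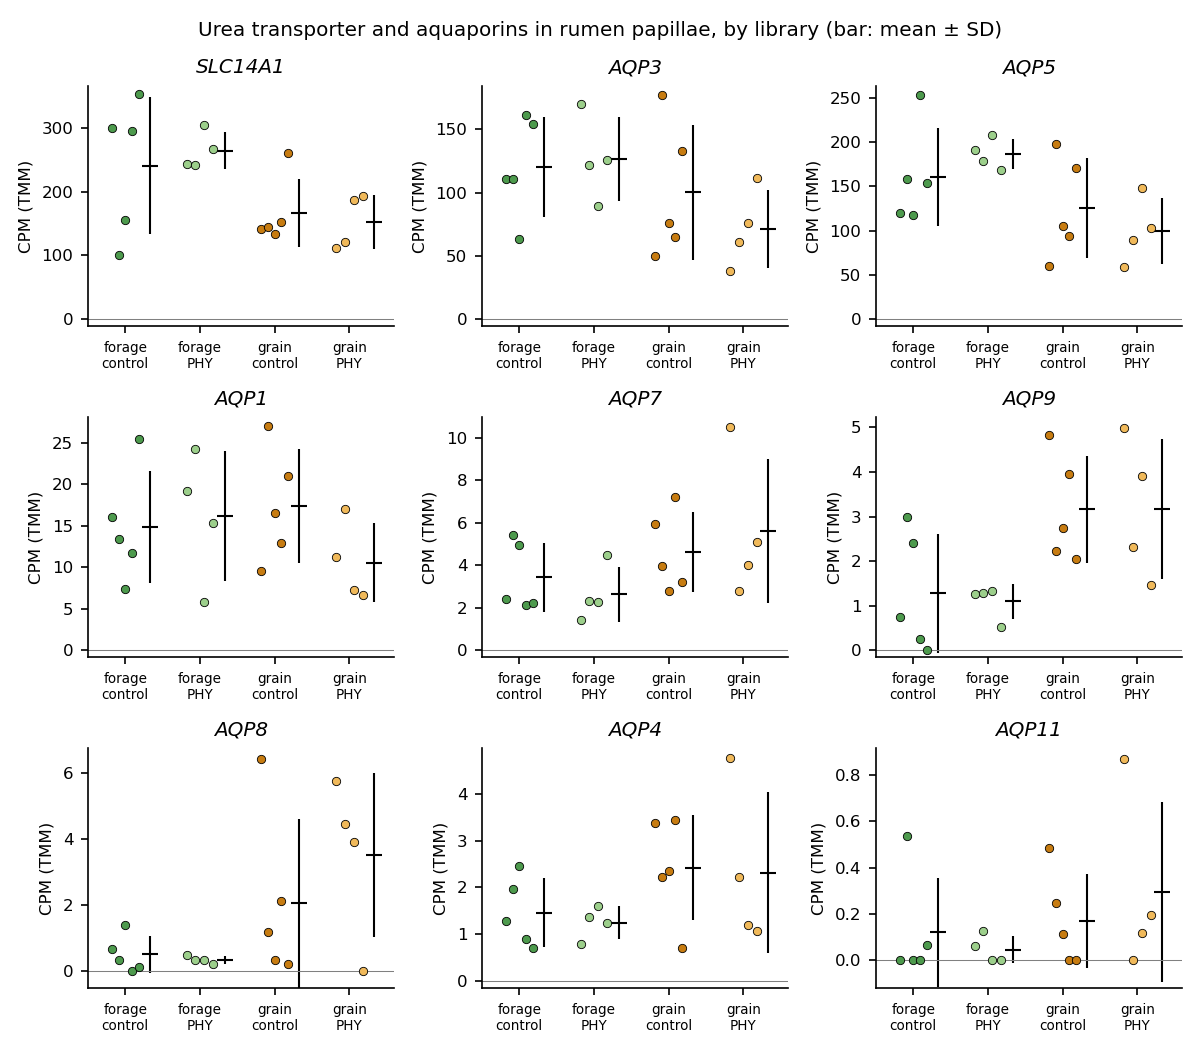
CPM of the 9 members in each of the 18 libraries, by group (points: libraries; bar: mean ± SD; each panel has its own linear axis). SLC14A1, AQP3 and AQP5 had their lowest group mean in grain PHY, and AQP8 and AQP9 had higher group means on grain than on forage, with libraries that overlapped between the diets in control cows for both genes and in PHY cows for AQP8.

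SLC14A1 (ENSBTAG00000019870), the urea channel, was read at 100.2 to 353 CPM, with at least 1035 reads in every library. In forage control it stood at 299, 100.2, 156, 294 and 353 CPM. In forage PHY it stood at 244, 242, 304 and 266 CPM. Forage control therefore spanned both the lowest and the highest of the 18 libraries, whereas forage PHY was narrow. In grain control SLC14A1 was at 141, 144, 133, 153 and 261 CPM, and in grain PHY at 112, 121, 186 and 193 CPM. All grain libraries except grain control replicate 5 were below every forage PHY library, but forage control replicates 2 and 3 lay among or below the grain libraries.

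By group mean the order for SLC14A1 was forage PHY (264 ± 28.9 CPM, SD, n = 4), forage control (240.3 ± 107, n = 5), grain control (166 ± 53.3, n = 5) and grain PHY (153 ± 42.3, n = 4). No step between neighbours in this order passed edgeR's test (adjusted p = 1.0, 0.437 and 0.999). Over both arms SLC14A1 fell from 251 ± 78.7 to 160.3 ± 46.3 CPM (n = 9 each), a 1.58-fold decrease (log2 fold change -0.66 ± 0.23 SE, edgeR adjusted p = 0.035). The log2 fold change was -0.53 ± 0.30 for control cows and -0.79 ± 0.34 for PHY cows, neither of which passed (adjusted p = 0.437 and 0.099). The 2 responses differed by -0.26 ± 0.45, which did not pass (adjusted p = 0.954, 95% interval -1.19 to 0.67). With one library left out at a time, the call for SLC14A1 held in 6 of 18 refits, with log2 fold changes from -0.77 to -0.56.

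AQP3 (ENSBTAG00000008493) is the aquaglyceroporin known from keratinocytes, where it passes water and glycerol. It was at 111, 111, 63.3, 161 and 154 CPM in forage control. It was at 169.7, 122, 89.5 and 126 CPM in forage PHY. Values in grain control were 50.05, 177, 75.9, 64.7 and 133 CPM. Its highest value of all was thus in a grain library, grain control replicate 2. In grain PHY AQP3 was at 38.02, 60.8, 76.0 and 111 CPM, and these overlapped with forage PHY.

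The AQP3 group means ran in the same order as those of SLC14A1: 127 ± 32.96 CPM in forage PHY, 120.1 ± 39.5 in forage control, 100.2 ± 53.3 in grain control and 71.6 ± 30.8 in grain PHY. Neighbours in this order did not differ beyond their spread. Over both arms AQP3 was at 123 ± 34.6 CPM on forage and 87.4 ± 44.8 on grain, with a log2 fold change of -0.54 ± 0.25 that did not pass (adjusted p = 0.087). The 95% interval was -1.06 to -0.03. The log2 fold change was -0.26 ± 0.33 for control cows and -0.82 ± 0.38 for PHY cows (adjusted p = 0.667 and 0.111).

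AQP7 (ENSBTAG00000020105), the aquaglyceroporin through which fat cells release glycerol, gave 30 to 98 reads per library. On forage it had 32 to 91 reads and on grain 30 to 98, although the grain libraries were shallower. In CPM it was therefore at 1.43 to 5.44 (median 2.34) on forage and 2.78 to 10.5 (median 4.03) on grain. The highest value, 10.5 CPM, came from the shallowest library, grain PHY replicate 1. The log2 fold change over both arms was 0.76 ± 0.31 and missed the threshold (adjusted p = 0.058). Group means were 5.61 ± 3.40 CPM in grain PHY, 4.62 ± 1.87 in grain control, 3.43 ± 1.62 in forage control and 2.62 ± 1.29 in forage PHY, with overlapping libraries throughout.

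AQP9 (ENSBTAG00000013452), an aquaglyceroporin of liver and white blood cells that also passes urea, was near the detection limit. Forage control gave 0.754, 2.99, 2.40, 0.245 and 0 CPM, from 0 to 50 reads. Forage PHY gave 1.27, 1.28, 1.33 and 0.512 CPM. On forage only control replicates 2 and 3 exceeded the lowest grain control value. Grain control gave 4.84, 2.22, 2.75, 3.96 and 2.06 CPM, and grain PHY 4.98, 2.32, 3.91 and 1.47 CPM. In PHY cows the grain and forage libraries did not overlap, as for 30% of all tested genes. AQP9 rose 2.67-fold over both arms, from 1.20 ± 0.98 to 3.17 ± 1.28 CPM (log2 fold change 1.42 ± 0.55, edgeR adjusted p = 0.0495), a call that held in 5 of the 18 refits with one library left out.

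Among the channels that pass mainly water, AQP5 (ENSBTAG00000026813), known from secretory glands, was the other member that fell. It was at 119.9, 158, 118, 253 and 154 CPM in forage control. It was at 190.5, 178, 208 and 168 CPM in forage PHY. In grain control it spread from 60.3 to 198 CPM, with the replicates at 60.3, 198, 105, 94.4 and 170.4. In grain PHY it was at 58.8, 89.6, 148 and 103 CPM, and all 4 lay below the 4 forage PHY libraries. Means were 186 ± 17.1 CPM in forage PHY, 161 ± 55.1 in forage control, 125 ± 56.7 in grain control and 99.9 ± 37.2 in grain PHY, and no neighbouring pair differed beyond its spread.

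Over both arms AQP5 fell 1.54-fold, from 172 ± 42.5 to 114 ± 48.1 CPM (log2 fold change -0.63 ± 0.23, edgeR adjusted p = 0.041). The call for AQP5 held in 7 of the 18 refits with one library left out. The log2 fold change of AQP5 was -0.35 ± 0.30 for control cows and -0.90 ± 0.34 for PHY cows (adjusted p = 0.534 and 0.080), and the difference of -0.54 ± 0.45 did not pass (adjusted p = 0.954). Markers of secretory glands summed to 6.88 to 16.5 CPM on forage and 12.2 to 49.4 CPM on grain, with 4 of 6 tested markers called higher and 0 lower (SLC12A2 among the 6 is also in the osmotic list used further on). These calls stand beside 18.1% of all genes called higher. With the olfactory receptor share in the model or without the 3 shallowest libraries, 0 gland markers were called. The part of gland markers in the AQP5 values was not tested.

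AQP1 (ENSBTAG00000000745), the water channel of vessel walls and red blood cells, did not move with diet beyond its spread. It ranged from 5.76 to 25.4 CPM (median 15.4) on forage and from 6.68 to 27.03 CPM (median 12.9) on grain. Group means were 17.4 ± 6.87 CPM in grain control, 16.1 ± 7.82 in forage PHY, 14.8 ± 6.74 in forage control and 10.6 ± 4.79 in grain PHY, and all 4 groups overlapped. The log2 fold change over both arms was -0.19 ± 0.27 (adjusted p = 0.565, interval -0.75 to 0.37), and it was 0.28 when libraries were scaled to total reads only. AQP1 was at 0.24 ± 0.36 in control cows and -0.62 ± 0.41 in PHY cows, and the difference between the arms, -0.86 ± 0.54, did not pass (adjusted p = 0.954). Of 12 endothelial markers 0 were called, while 5 of 8 tested red blood cell markers were called higher on grain, beside 18.1% of all genes. With the olfactory receptor share in the model, the red blood cell median log2 went from 1.66 to 0.07 and 0 were called. Without the 3 shallowest libraries, all on grain, only 6 red blood cell markers passed the low-count filter, and 0 were called. With the stricter filter 4 were tested. Some of the 8 thus passed the filter only with shallow grain libraries, so the 5 calls are not offered as support for a rise.

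AQP4 (ENSBTAG00000051072), the water channel of astrocytes and of some epithelia, had 11 to 54 reads per library. It ranged from 0.711 to 2.47 CPM (median 1.28) on forage and from 0.701 to 4.77 CPM (median 2.23) on grain. The highest value again came from the shallowest library, and the lowest from grain control replicate 5. Group means were 2.42 ± 1.12 CPM in grain control, 2.32 ± 1.71 in grain PHY, 1.47 ± 0.74 in forage control and 1.25 ± 0.34 in forage PHY. The log2 fold change over both arms was 0.80 ± 0.41 and did not pass (adjusted p = 0.117). Of 7 markers of glia and Schwann cells, 4 were called higher and 1 lower, beside 18.1% and 13.8% of all genes. They summed to 35.6 ± 3.17 CPM on forage and 40.5 ± 8.60 on grain, and MBP, at log2 -0.49, gave 27.7 to 89.5% of their reads. With the olfactory receptor share in the model or without the 3 shallowest libraries, 0 of them were called. The part of these markers in the AQP4 values was not tested.

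AQP8 (ENSBTAG00000020184), a channel for water and ammonia, had the largest fold change of the 8 tested members. It was at 0.679, 0.359, 1.40, 0 and 0.129 CPM in forage control and at 0.507, 0.343, 0.332 and 0.219 CPM in forage PHY. No forage library held more than 21 reads of it. Grain control gave 6.41, 1.19, 0.344, 2.13 and 0.234 CPM, and grain PHY gave 5.74, 4.45, 3.91 and 0 CPM. On grain the values split: 4 of 9 libraries lay within the forage range of 0 to 1.40 CPM, 1 of them at 0 reads, and the other 5 lay above it. Too few forage libraries reached the level of the low-count filter, so AQP8 was tested only because of its grain libraries. Its call therefore cannot serve as support for a rise, and the stricter filter left AQP8 untested. Over both arms the estimate for AQP8 was 6.25-fold higher on grain (log2 fold change 2.64 ± 0.75, edgeR adjusted p = 0.023). The call held in 16 of the 18 refits with one library left out. The exceptions were the refits without grain control replicate 1 and without grain PHY replicate 1, the libraries with its highest values.

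AQP11 (ENSBTAG00000019928) was hardly detected. It had 0 reads in 8 of 18 libraries and at most 9 reads, so it entered no test. The highest value was 0.867 CPM, in grain PHY replicate 1. A count of 0 allows up to 3 reads, which covers counting error only, so AQP11 was not detectable at this depth in those libraries and absence was not shown.

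**Figure D2:**
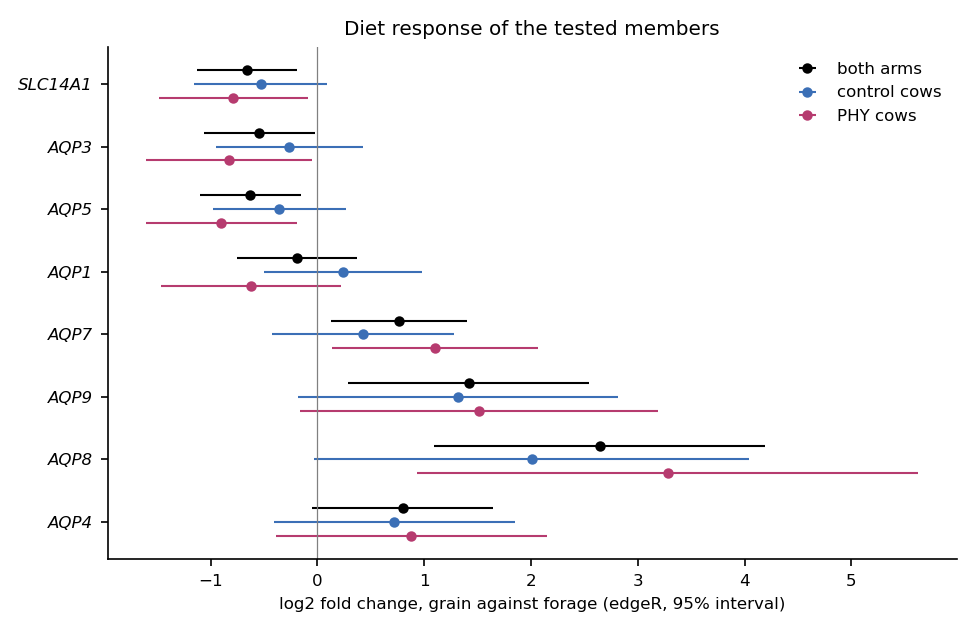
Log2 fold change of grain against forage for the 8 tested members (point: edgeR estimate; line: 95% interval), over both arms, in control cows and in PHY cows. The intervals of the 2 arms overlap for every member, and only SLC14A1, AQP3, AQP5, AQP7, AQP8 and AQP9 have an interval over both arms that lies on one side of 0 before adjustment.

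Diet was also compared within each arm. In control cows edgeR called 0 of 8 members (smallest adjusted p = 0.432) and 0% of all tested genes. In that fit 0 members had an unadjusted p under 0.05, beside 2518 of 22202 genes. DESeq2 and limma voom also called 0 members there, with 1 and 2 at an unadjusted p under 0.05. Scaled to total reads only, edgeR had 2 at that level and called 0. In PHY cows edgeR called 0 of 8 members and 0% of genes, with 5 members at an unadjusted p under 0.05 beside 39.7% of all genes. In this arm 3 of 8 members, SLC14A1, AQP5 and AQP9, had forage and grain libraries that did not overlap, beside 30% of all genes (6659 of 22202). Tools differed here: DESeq2 called AQP5 and AQP8 beside 23.8% of all genes, and limma voom called SLC14A1, AQP3, AQP5, AQP7 and AQP9 beside 35.6%. With only the 2 groups of PHY cows in the fit, edgeR called AQP9 beside 24.0% of genes. The DESeq2 count, 2 of 8, is near the share of all genes, and it includes AQP8, which was tested only because of its grain libraries.

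For each of the 8 members, PHY and control libraries overlapped on both diets. On forage, PHY against control gave log2 fold changes from -0.46 (AQP8) to 0.21 (AQP5), and 0 of 8 were called beside 0% of genes. SLC14A1 differed by 0.14 ± 0.32 (95% interval -0.52 to 0.79). On grain, they ran from -0.73 (AQP1) to 0.81 (AQP8), and again 0 of 8 were called beside 0% of genes. SLC14A1 differed there by -0.12 ± 0.32 (interval -0.78 to 0.54). For AQP1 on grain the interval was -1.54 to 0.08, so a more than 2-fold lower level with PHY was not excluded by these libraries. The arms' diet responses differed by an amount that was called for 0 of 8 members and 0% of genes. In these 3 comparisons 0 members reached an unadjusted p under 0.05 in the main edgeR fit, beside 356, 571 and 442 of 22202 genes. DESeq2 and limma voom called 0 as well. On grain, 1 of 8 reached an unadjusted p under 0.05 with limma voom. The same count came from edgeR with only the groups compared. Some edgeR refits with one library left out also gave 1, on grain or for the difference of diet responses. None of these was called. A p that misses the threshold does not show that PHY and control cows were alike.

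The members split by how their reads followed depth. Reads of SLC14A1, AQP3 and AQP5 were fewer in shallow libraries, from 1035 to 10918, from 351 to 5358 and from 499 to 6197. Reads of AQP4 and AQP7 stayed at 11 to 54 and 30 to 98 over the whole range of depth, as did those of the olfactory receptor genes. Set against the olfactory receptor reads of the same library, AQP7 was at a log2 ratio of -3.52 on forage and -3.86 on grain, and AQP4 at -4.64 and -5.02. Over both arms neither ratio passed (exact permutation tests, two-sided: difference -0.34, p = 0.144, and -0.38, p = 0.0753; both adjusted over 55 ratio tests added after seeing the data, 0.529 and 0.473). By arm, AQP4 differed by 0.03 in control cows and by -0.89 in PHY cows, where the diets did not overlap (exact p = 0.944 and 0.0286, the latter the smallest 4 against 4 can give; adjusted p = 0.984 and 0.473). For AQP8 and AQP9 the same ratios were higher on grain by 1.01 (exact p = 0.24) and 1.07 (exact p = 0.0742) over both arms, and neither passed. By arm, AQP9 differed by 2.01 in control cows (exact p = 0.0238, adjusted p = 0.473) and by -0.11 in PHY cows (exact p = 0.714). In control cows the lowest AQP9 ratio on forage, -10.1 beside a group mean of -6.28, came from replicate 5. That library had 0 reads of AQP9, so its ratio rests on the 0.5 read added to each side. The same holds for AQP8 in forage control replicate 4 and grain PHY replicate 4, which had 0 reads of it. The lowest AQP8 ratios were -10.15 on forage and -10.04 on grain.

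**Figure D3:**
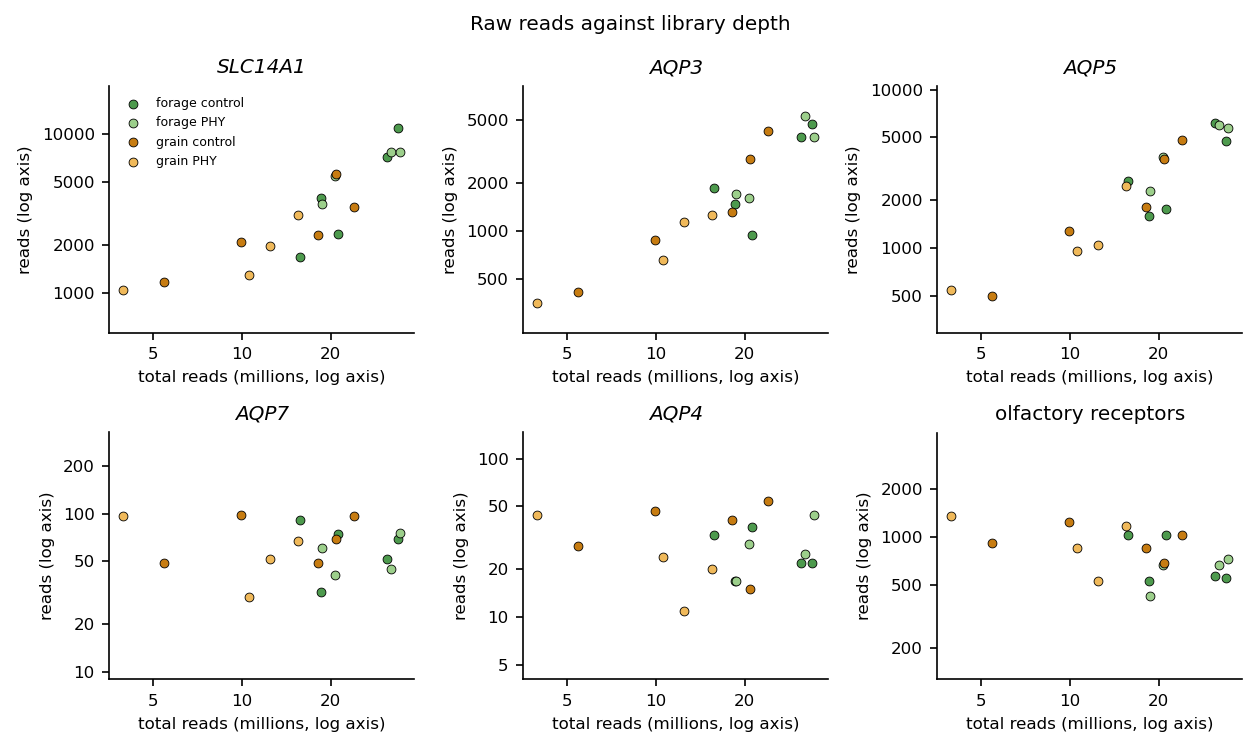
Raw reads of SLC14A1, AQP3, AQP5, AQP7 and AQP4, and of the summed olfactory receptor genes, against total reads per library (both axes log; colours: groups). Reads of SLC14A1, AQP3 and AQP5 climb with depth, whereas AQP7, AQP4 and the olfactory receptors lie in flat bands.

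The diet differences changed with the scaling of the libraries. TMM factors were 0.71 to 1.06 on forage and 0.82 to 2.35 on grain, with the highest in grain PHY replicate 1. Scaled to total reads alone, a setting chosen after seeing the data, SLC14A1 moved to -0.17 (adjusted p = 0.533), AQP5 to -0.21 (adjusted p = 0.401) and AQP3 to -0.18, and none of them was called. AQP4 (1.54, adjusted p = 0.029), AQP7 (1.48, adjusted p = 0.015), AQP8 (3.45) and AQP9 (2.04) were then called, all higher. Under that scaling 36.4% of all genes were called higher and 0.360% lower, and the median log2 fold change of all genes moved from 0.20 to 0.75. Relative to those medians SLC14A1 stood at -0.86 and -0.93, AQP5 at -0.83 and -0.97, AQP3 at -0.75 and -0.93, and AQP7 at 0.56 and 0.73.

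With the olfactory receptor share in the model, the log2 fold changes over both arms shrank to -0.10 for SLC14A1, -0.08 for AQP5, 0.27 for AQP8 and 0.20 for AQP9, and edgeR called 0 members and 0 genes (smallest adjusted p = 0.687 over all genes; 0 members and 1032 genes at an unadjusted p under 0.05). That share and diet moved together in these libraries, so their parts cannot be told apart. Without the 3 shallowest libraries SLC14A1 stood at -0.50 (adjusted p = 0.238), AQP5 at -0.33, AQP8 at 1.66 and AQP9 at 1.09, and edgeR called 0 of 8 members, with 2 at an unadjusted p under 0.05. DESeq2 called 5 members over both arms (SLC14A1, AQP5, AQP7, AQP8, AQP9) beside 41.9% of all genes. With a stricter filter on low counts, edgeR called AQP7 and AQP9 beside 30.4%, and AQP8 was not among the 7 members tested. Limma voom called 5 (SLC14A1, AQP3, AQP5, AQP7, AQP9) beside 45.6%.

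**Figure D4:**
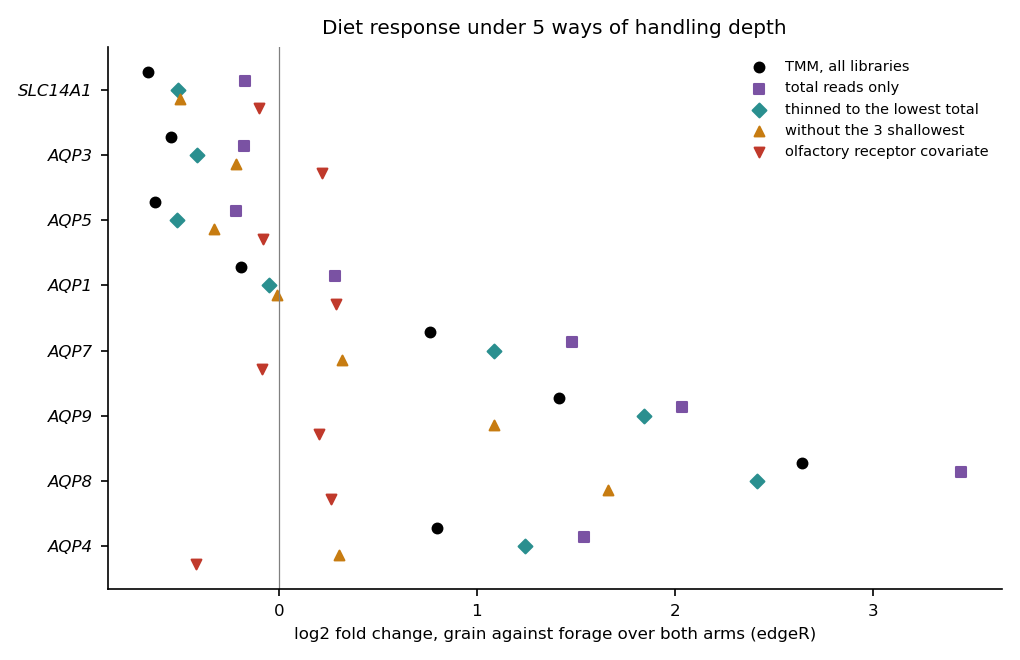
Log2 fold change of grain against forage over both arms under 5 ways of handling depth, for the 8 tested members (symbols: settings; edgeR). SLC14A1 and AQP5 stay below 0 in all 5, AQP8 and AQP9 stay above 0, and AQP3, AQP1, AQP7 and AQP4 change side in at least 1.

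Ratios of reads within a library do not depend on the scaling. The log2 ratio of SLC14A1 to AQP3 reads was 1.0 ± 0.56 on forage and 0.98 ± 0.56 on grain (n = 9 each), a difference that did not pass (difference -0.02, 95% interval -0.57 to 0.53, exact permutation test, two-sided, p = 0.948). Set against 10 basal keratinocyte markers of the same library, SLC14A1 was at -5.58 ± 0.38 and -5.59 ± 0.52 (difference -0.01, interval -0.46 to 0.45, exact p = 0.966). AQP3 against these markers was at -6.58 ± 0.32 and -6.57 ± 0.44 (difference 0.01, interval -0.37 to 0.40, exact p = 0.967). AQP5 against them differed by -0.07 (interval -0.50 to 0.35, exact p = 0.739). The basal markers themselves summed to 8199 to 14227 CPM on forage and 3123 to 13706 CPM on grain. Of these 10, 3 were called lower, beside 13.8% of all genes, and 0 higher. SLC14A1, AQP3 and AQP5 thus had lower mean CPM on grain along with the basal markers, and their shares relative to those markers did not differ beyond the spread.

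Against upper layer keratinocyte markers the differences were -0.19 for SLC14A1, -0.17 for AQP3 and -0.25 for AQP5, with exact p from 0.168 to 0.386. Of 11 tested markers of that list 4 were called higher, beside 18.1% of all genes, and 0 lower (median log2 0.53). Its member IVL, which gave 25.8 to 46.4% of the list's reads, was at -0.64. AQP1 against 12 endothelial markers differed by 0.09 (interval -0.44 to 0.62, exact p = 0.719). Against the basal keratinocyte markers, a choice made after seeing the data, AQP1 differed by 0.51 (interval -0.26 to 1.25, exact p = 0.175). By arm that ratio differed by 0.79 in control cows (exact p = 0.0159, adjusted p = 0.473) and by 0.16 in PHY cows (exact p = 0.971). AQP9 against 8 neutrophil markers was 2.60 higher on grain (exact p = 0.00564, adjusted p = 0.141 over the 25 ratio tests planned). S100A12 alone gave 95.6 to 99.9% of the reads of that list. Against the other 7 markers, a choice made after seeing the data, AQP9 was higher by 0.95 (interval -0.12 to 2.23, exact p = 0.0993), by 1.65 in control cows (exact p = 0.103) and by 0.06 in PHY cows (exact p = 0.943). Those 7 markers summed to 4.91 to 17.5 CPM on forage and 10.7 to 49.2 CPM on grain. Of 8 neutrophil markers in all, 4 were called higher, beside 18.1% of all genes. In both AQP9 ratios the lowest forage value came from forage control replicate 5. That library had 0 reads of AQP9, so its ratios rest on the 0.5 read added. Of the 25 planned and 55 added ratio tests, 0 passed after adjustment.

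**Figure D5:**
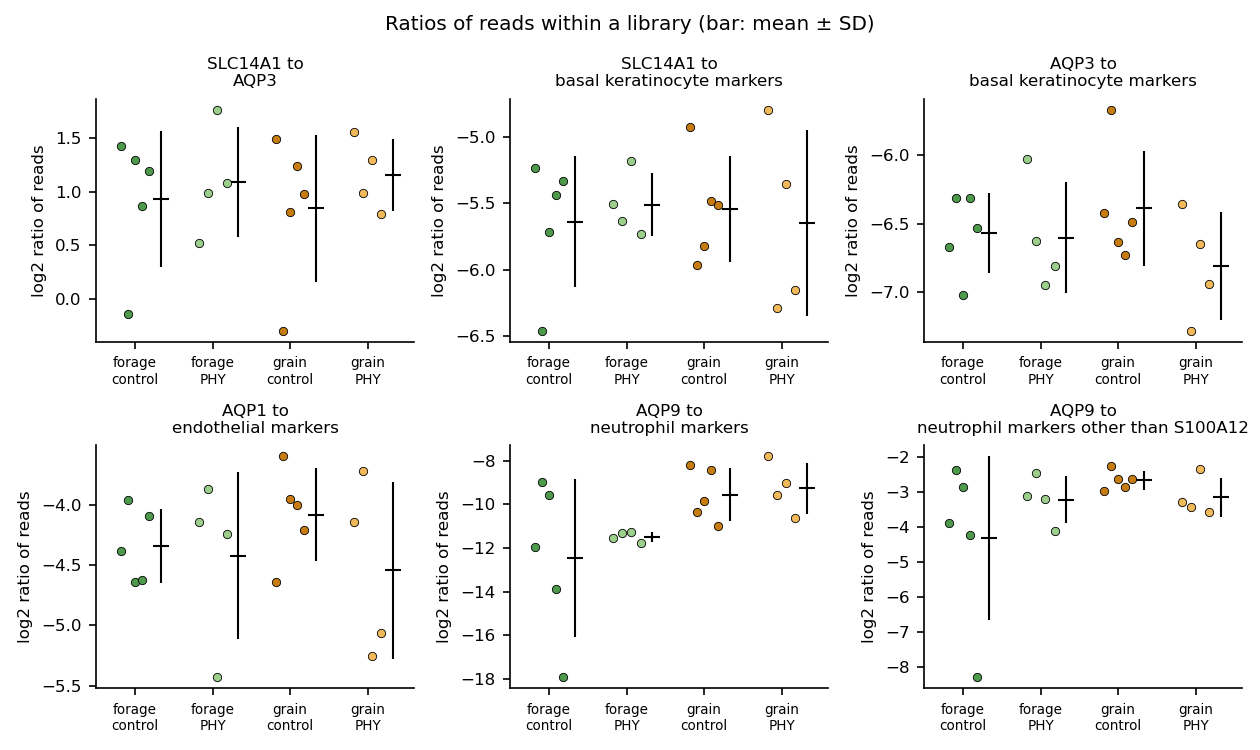
Log2 ratios of reads within each library, by group (points: libraries; bar: mean ± SD; 0.5 read added to each side). The groups overlap for SLC14A1 and AQP3, to each other and to basal keratinocyte markers. AQP9 to neutrophil markers runs from -17.9 to -8.96 on forage and from -11.0 to -7.81 on grain. The value of -17.9 is from a library with 0 reads of AQP9.

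Other genes of the 2 families were scarce. SLC14A2, the kidney urea transporter and the genomic neighbour of SLC14A1, rose from 0.808 ± 0.593 to 2.95 ± 2.13 CPM on grain (log2 fold change 1.92 ± 0.49, edgeR adjusted p = 0.022). It was the only one called of 4 tested, beside 31.9% of all tested genes. It had at most 56 reads in a library, and the change became 0.35 with the olfactory receptor share in the model and 1.15 without the 3 shallowest libraries, both not called. AQP2, which lies next to AQP5 in the RefSeq gene order, was at 3.64 ± 1.56 and 2.99 ± 0.67 CPM, and its ratio to AQP5 differed by 0.47 (exact p = 0.0917). AQP3 and AQP7 are also neighbours in that order, and since the strand setting of the counting is not given in the sources used here, reads of neighbours could be shared.

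Over both arms 18.1% of all tested genes were called higher and 13.8% lower. Of 14 genes of the urea cycle and of ammonia handling, 1 was called higher and 0 lower (median log2 0.10). It was CPS1, the mitochondrial enzyme that starts the urea cycle from ammonia, at 2.38 ± 1.44 CPM on forage and 7.81 ± 4.398 on grain (log2 1.72 ± 0.40, edgeR adjusted p = 0.020). The ammonia channels RHBG and RHCG were at -0.35 ± 0.16 (adjusted p = 0.086; 0.16 when scaled to total reads only) and 0.96 ± 0.63 (adjusted p = 0.209).

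Of 13 tested genes of glycerol and triglyceride metabolism, 1 was called higher and 4 lower (median log2 -0.04). All genes had 18.1% called higher and 13.8% lower. PNPLA2, the first lipase of triglyceride breakdown, fell by 0.83 ± 0.16 on the log2 scale (adjusted p = 0.020), and its coactivator ABHD5 by 0.66 ± 0.16 (adjusted p = 0.020). DGAT1, which makes triglyceride, fell by 0.59 ± 0.20 (adjusted p = 0.036), as did AGPAT2, named after its value was seen, by 0.66 ± 0.23. LPL, the lipase of blood lipoproteins, rose by 1.02 ± 0.32 (adjusted p = 0.027). Glycerol kinase GK, which traps glycerol that has entered a cell, was at 0.10 ± 0.21 (adjusted p = 0.715).

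Of 13 tested genes of the osmotic response, 4 were called higher and 4 lower (median log2 -0.36), beside 18.1% and 13.8% of all genes. STK39, a kinase that switches on cotransporters, rose by 1.27 ± 0.32 (adjusted p = 0.021), the cotransporter SLC12A2 by 0.66 ± 0.20 and the taurine transporter SLC6A6 by 0.84 ± 0.26. LRRC8A, the obligatory subunit of the volume-regulated anion channel, fell by 0.64 ± 0.20 (adjusted p = 0.027). The remaining called genes, named after their values were seen, were SLC6A12, higher, and WNK1, OXSR1 and CLNS1A, lower. NFAT5, the transcription factor of the response to high salt, was at -0.45 ± 0.19 (adjusted p = 0.068). In these 3 lists 0 genes were called with the olfactory receptor share in the model, without the 3 shallowest libraries or without grain PHY replicate 1. Scaled to total reads only, the called genes of each list kept their sign but 0 were called lower.

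By Pearson's r of log2 CPM over the 18 libraries, among 9892 genes with a symbol and at least 5 CPM, the genes most like SLC14A1 were SPINT1 (r = 0.93), NUDCD3 (0.91) and NDUFB8 (0.91). Those most like AQP3 were SQSTM1 (0.94), MTERF1 (0.94) and PSAP (0.93). Those most like AQP1 were PDLIM3 (0.87), MTMR12 (0.86) and ADGRF5 (0.82), the last known from endothelium. AQP5 and AQP3 were at r = 0.85, which ranked AQP5 at place 478 of 9892 for AQP3. SLC14A1 and AQP3 were at 0.61, which placed AQP3 only at 4639 for SLC14A1, near the middle of all genes, and SLC14A1 and AQP1 were at 0.12. These correlations are descriptions: the libraries share diet, depth and composition, and within forage libraries alone AQP5 and AQP3 were at 0.55, and within grain libraries at 0.90.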

How the data were processed

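RNA-seq libraries were made from 10 ng of total RNA with a stranded total RNA kit, per the labels' protocols. Raw read counts, deposited by the authors as 1 table, were used as they stand. The build was bosTau9 and demultiplexing was with bcl2fastq 2.20, per the submitters' processing notes. For the aligner, the counting tool and the strand setting, the sources used here give nothing. The deposited normalized signal equals these counts divided by 1 size factor per library, as checked on the values, and was not tested. Counts of 18 libraries in 4 groups were fitted with edgeR 4.0.16 (R 4.3.3; filterByExpr, TMM, robust quasi-likelihood F test, 1 mean per group), which tested 22202 genes with Benjamini-Hochberg adjustment in each of 6 contrasts. Replicate numbers follow deposit order. Nothing in the labels says which libraries share a cow, so p-values measure the spread between libraries.

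Ratios were log2 of reads plus 0.5 on each side, compared by exact permutation over libraries, with intervals from inverting that test. Alternatives used DESeq2 1.42.0, limma 3.58.1 (voom with quality weights), other scalings and filters, an olfactory receptor covariate, thinning every library to 3953060 reads, and leaving libraries out. The edgeR fit was tested on simulated counts with the real library sizes, 1 shared mean profile and independent libraries. The simulation held no composition difference between the diets, no depth-linked reads and no shared cows, so it does not cover those features. The members and lists were chosen with earlier results of these data known. All members are named. Of the lists of related genes, up to 4 called genes of smallest adjusted p are named, plus RHBG, RHCG, NFAT5 and GK whatever their test. The likeness rule took the 3 genes of highest r for SLC14A1, AQP3 and AQP1. Gene neighbours come from the order of RefSeq genes on another assembly, and no coordinates or sequences are given. AQP6, AQP12A and AQP12B found no match by symbol and were not analysed here.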

Additional observations from a re-analysis of the deposited data

Results flagged for a closer look

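In 3 cases a value stood apart from the rest of its group. Each was the highest or lowest of 4 or 5 libraries, with a gap to its nearest neighbour that took up more of the group's range than Dixon's critical value allows. SLC14A1 in grain control replicate 5 was at 260.8 CPM, against 133 to 153 CPM in the other 4. AQP9 in forage PHY replicate 4 was at 0.512 CPM, against 1.27 to 1.33 CPM in the other 3. AQP11 in forage control replicate 2 was at 0.538 CPM (9 reads), against 0 to 0.0646 CPM in the other 4. Of 36 groups checked, 3 gave such a value, and chance flags about 1 in 20 groups.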

How the results depend on the processing

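Fold changes of members and of the other family genes were recomputed under each alternative. Of these 1319, 1179 kept their direction and their side of the threshold, 52 lost a call and 23 gained one. A further 65 changed sign with neither value called, and 0 reversed a call. All 52 losses were in grain against forage over both arms, the only contrast with calls to lose. There 143 stayed the same, 15 gained a call and 5 changed sign. Over both arms 4 members were called. That became 2 with the stricter low-count filter (AQP7 and AQP9, beside 30.4% of all genes), 0 with the olfactory receptor covariate, 0 without the 3 shallowest libraries, and 0 to 6 when single libraries were left out. The count was 5 with every library thinned to the lowest total and 4 with DESeq2 size factors in edgeR. In PHY cows the count of 0 became 2 with DESeq2, 5 with limma voom and 1 with only the groups compared. The ratio of AQP3 to basal keratinocyte markers was -0.0287 without the 3 shallowest libraries. With single libraries left out, it ran from -0.11 to 0.10, SLC14A1 to AQP3 from -0.16 to 0.14, SLC14A1 to basal markers from -0.12 to 0.0781, AQP1 to endothelial markers from -0.0409 to 0.21, and AQP9 to neutrophil markers from 1.86 to 2.98, the last passing (adjusted p = 0.0267) without forage control replicate 2. The causes were not tested. No paired analysis was possible because no label links a library to its cow. Depth limits AQP4, AQP7, AQP8, AQP9 and AQP11 most, with fewer than 100 reads of each in every library.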
